A study of Mus musculus with 6 samples.

Results

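Marrow retention and homing receptors are the surface proteins by which a developing B cell is held in the bone marrow, released from it and directed to lymphoid organs. They were taken here as 9 genes, Cxcr4, Itga4, Itgb1, Cd44, Cnr2, Itgal, S1pr1, Ccr7 and Cxcr5, and as every probe set that the platform annotation pairs with one of these genes alone. Each gene had 1 such probe set, so 9 of the 19938 genes that have their own probe sets are described, on 9 of the 23410 probe sets that have a gene name and were tested. The rule that picks the probe sets uses gene names and no measured value, but the genes were listed with earlier results of these data known. Pro-B and pre-B cells, the progenitor stages before and after rearrangement of the heavy chain gene, were sorted together from bone marrow of BALB/c mice, an inbred strain, and received no treatment. The old group consists of 3 arrays from mice of 24 months and the young group of 3 arrays from mice of 2 months, with 100 ng of RNA amplified for each. The labels do not say whether mice were pooled for an array, so p-values measure the spread between these arrays. Levels are log2 of the deposited intensity, differences are old minus young on the log2 scale, and the series asks how these cells change with age and inflammation.

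The receptors act at different steps. Cxcr4 binds Cxcl12, a chemokine that stromal cells of the marrow secrete, and this keeps B cell progenitors in their niche. Itga4 and Itgb1 encode the chains of the integrin VLA-4, which binds Vcam1 on stroma and fibronectin, and Cd44 binds hyaluronan in the matrix. Cnr2, a receptor for endocannabinoids, is known to hold immature B cells in marrow sinusoids. S1pr1 senses sphingosine 1-phosphate, which is abundant in blood, and promotes exit from tissue. Itgal, the alpha chain of LFA-1, binds Icam1 on endothelium. Ccr7 and Cxcr5 guide lymphocytes within lymphoid organs, Ccr7 towards Ccl19 and Ccl21 in T cell zones and Cxcr5 towards Cxcl13 in follicles.

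The sequence upstream of the gene start is shown for Cxcr4 and for the chains of VLA-4, the retention receptors whose values span the widest ranges over the 6 arrays. Promoter windows from RefSeq (build GRCm38.p6) matched 5 of the 9 genes, namely Cxcr4, Itga4, Itgb1, Cd44 and Cnr2, and the last has more than 1 window. Each printed window holds the 250 bases before the gene start, 5′ to 3′ on the strand of the gene. Capitals mark the GC box, searched as GGGCGG on both strands. The Cxcr4 window is chr1:128592300-128592549 on the minus strand, the Itga4 window chr2:79255176-79255425 on the plus strand and the Itgb1 window chr8:128685404-128685653 on the plus strand.
Cxcr4: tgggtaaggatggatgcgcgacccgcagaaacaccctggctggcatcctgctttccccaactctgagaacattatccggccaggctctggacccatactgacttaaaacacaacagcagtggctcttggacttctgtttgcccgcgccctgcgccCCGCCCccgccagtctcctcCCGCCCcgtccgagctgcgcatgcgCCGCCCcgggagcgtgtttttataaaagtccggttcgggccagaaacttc
Itga4: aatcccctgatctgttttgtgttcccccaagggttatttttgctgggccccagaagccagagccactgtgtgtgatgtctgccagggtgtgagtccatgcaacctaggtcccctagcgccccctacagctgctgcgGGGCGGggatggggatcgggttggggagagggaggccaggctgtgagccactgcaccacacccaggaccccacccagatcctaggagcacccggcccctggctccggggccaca
Itgb1: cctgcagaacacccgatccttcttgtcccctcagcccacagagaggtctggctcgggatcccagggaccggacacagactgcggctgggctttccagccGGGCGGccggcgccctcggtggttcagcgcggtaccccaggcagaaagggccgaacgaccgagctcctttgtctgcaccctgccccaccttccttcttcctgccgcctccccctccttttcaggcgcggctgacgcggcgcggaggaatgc
The Cxcr4 window holds 3 matches to the GC box, and the Itga4 and Itgb1 windows hold 1 each, whereas the Cd44 and Cnr2 windows hold 0. Of all 32851 promoter windows of this length in the table, 32.7% hold a match. The Cxcr4 window alone among those of the 5 genes also holds the TATA box, searched as TATAAA on both strands. Its 2 matches, 1 on each strand, overlap each other, and the first begins 32 bases before the gene start. Both are clear of the GC boxes, and 12.4% of all windows hold such a match. G and C make up 61.2%, 64% and 68% of the bases of the Cxcr4, Itga4 and Itgb1 windows. These matches describe letters in the windows only.

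Old replicates 1 and 2 stood apart from the other 4 arrays, and this bears on every value below. The median level of the 10% of probe sets brightest in the young group was 6.02 and 6.42 on them, against 9.04 on old replicate 3 and 9.22 to 9.32 on the young arrays. Across all probe sets their correlation with young arrays was 0.622 to 0.703 (Pearson's r), and that of old replicate 3 was 0.976 to 0.984. No detection calls were used, so background was set on each array at the 95th percentile of the 1375 probe sets for olfactory or vomeronasal receptors, genes of sensory neurons. It lay at 6.30 and 6.41 on old replicates 1 and 2, at 5.18 on old replicate 3 and at 4.60 to 4.84 on the young arrays. Of the 14 measured pro-B and pre-B markers, 14 were above this level on each young array and 13 on old replicate 3, but 5 and 4 on old replicates 1 and 2. Rag1 and Ebf1 were not above it there, whereas Vpreb1, a surrogate light chain gene, stood at 11.13 and 11.69 on them beside a young mean of 10.99, and Vpreb2 at 7.75 and 8.01 beside 6.82. Actb, which encodes beta-actin, was at 6.67 and 6.84 on old replicates 1 and 2, at 11.65 on old replicate 3 and at 11.58 to 11.61 on the young arrays. All 5 actin and housekeeping genes had a lower old mean in the deposited values, and 4 of the 5 after quantile normalization. The part of array signal quality in the receptor values was not tested. Fewer cells of a type and less RNA per cell cannot be told apart in such bulk samples.

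Against that level, 8 of the 9 receptor genes were detected on every young array and on old replicate 3, and 3 were detected on old replicates 1 and 2. Cxcr5 was not above background on any array. Cxcr4, S1pr1 and Ccr7 were above it on all 6 arrays. Itga4, Itgb1, Cd44, Cnr2 and Itgal were above it on the young arrays and old replicate 3 and not on old replicates 1 and 2. Of the 11635 probe sets above the level on all young arrays, 19.5% were above it on both of these old arrays.

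**Figure D1:**
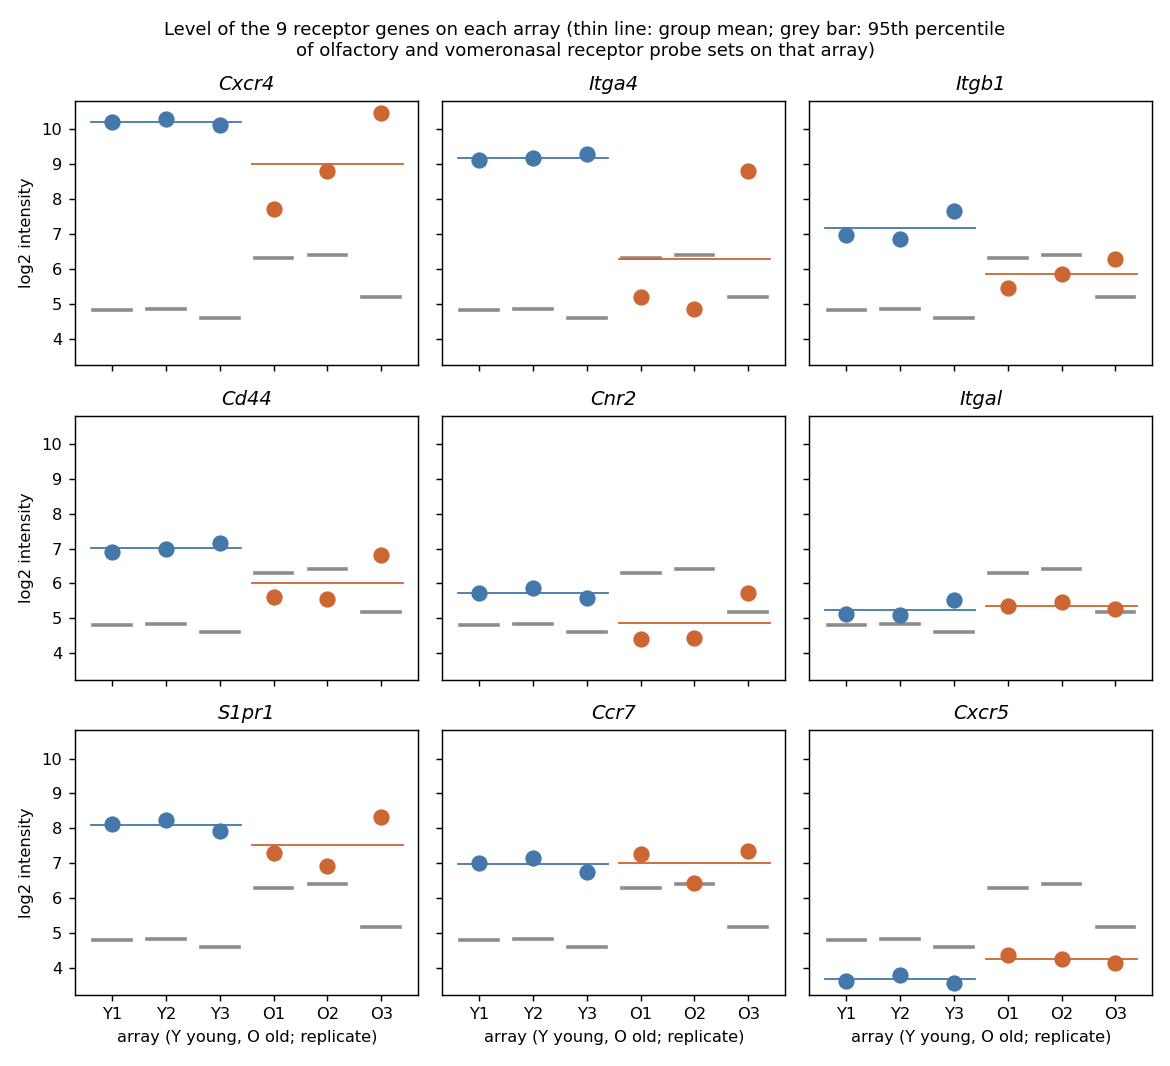
Log2 intensity (y axis) of each of the 9 receptor genes on the 3 young arrays (blue) and the 3 old arrays (orange), with thin lines for group means and grey bars for the background level of each array. Cxcr4, S1pr1 and Ccr7 lie above the grey bar on all 6 arrays, Cxcr5 lies below it on all 6, and the other 5 genes lie below it only on old replicates 1 and 2.

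Comparing the 3 old with the 3 young arrays, 0 of the 9 genes passed an adjusted p under 0.05 with limma, as did 0 of all 23410 probe sets (0% called). The adjusted p-values of the 9 genes ran from 0.101 to 0.898, and 4 had an unadjusted p under 0.05, as had 10966 of all probe sets. The old mean was lower for 6 genes and higher for 3, with a median difference of -0.87 over the 9 genes beside 0.35 over all probe sets tested. Over the 11635 probe sets above background on every young array, as 8 of the 9 receptors were, the median was -0.72, a description since these were picked by their young signal. With arrays centred on their median the old mean was lower for 8 of the 9, and after quantile normalization for 4 of the 9, with a median of 0.04 beside 0.09 over all probe sets. All old values lay below all young values for Itga4, Itgb1 and Cd44, that is for 3 of 9 genes, and this held for 22.9% of all probe sets. All old values lay above all young values for Cxcr5 alone, that is for 1 of 9, against 36.1% of all probe sets. The groups were thus apart in either direction for 4 of 9 genes, beside 59.0% of all probe sets, and overlapped for the remaining 5. For a single gene taken by itself, an exact permutation test of 3 against 3 arrays cannot give a 2-sided p below 0.1.

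Cxcr4, the Cxcl12 receptor, stood at 10.21, 10.28 and 10.11 on young replicates 1 to 3 and at 7.70, 8.80 and 10.46 on old replicates 1 to 3. Old replicates 1 and 2 were the lowest of the 6 arrays and old replicate 3 was the highest, so the groups overlapped. The old mean was 8.99 ± 1.39 (SD, n = 3) and the young mean 10.20 ± 0.09 (SD, n = 3). The difference of -1.21 ± 0.65 (SE, limma) did not pass the threshold (adjusted p = 0.154), and it turned to 0.25 ± 0.22 (SE) when the arrays were quantile normalized. Relative to the young mean, Cxcr4 was 5.68-fold lower on old replicate 1, 2.64-fold lower on old replicate 2 and 1.20-fold higher on old replicate 3. Unlike the integrin chains, Cxcr4 kept a signal above background on all 6 arrays, so its fold differences are values and not bounds. They hold for the deposited values only. After quantile normalization Cxcr4 stood at 9.30 and 9.94 on old replicates 1 and 2, and at 9.30 to 9.55 on the young arrays.

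Itga4, the VLA-4 alpha chain, had the largest difference in size among the 9 genes. Its level was 9.11, 9.17 and 9.27 on the young arrays and 5.19, 4.84 and 8.80 on the old arrays. All old values were below all young ones, but old replicate 3 lay 0.39 below the young mean, while the others were at the level of background. The old mean was 6.28 ± 2.19 (SD, n = 3) and the young mean 9.18 ± 0.08 (SD, n = 3), a difference of -2.91 ± 0.99 (SE, adjusted p = 0.101 with limma). Since old replicates 1 and 2 were not above background, their distances from the young mean have a bound only. With those values raised to the background level the distances were -2.88 and -2.78, and Itga4 was thus lower by at least these amounts on the log2 scale. With every value below background raised to it, the group difference was -2.01 and passed the threshold (adjusted p = 0.018 with limma). That fit called 13.4% of all probe sets lower, 27.1% of those above background on every young array, and 56.4% of all probe sets higher.

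Itgb1, the VLA-4 beta chain that also pairs with other alpha chains, stood at 6.98, 6.85 and 7.65 on the young arrays and at 5.45, 5.84 and 6.29 on the old arrays. Young replicate 3 was the highest of the 6 arrays, and every old array was below every young one, old replicate 3 included. The old mean was 5.86 ± 0.42 (SD, n = 3) and that of the young arrays 7.16 ± 0.43 (SD, n = 3), a difference of -1.30 ± 0.33 (SE, adjusted p = 0.101 with limma). Of the 9 genes, Itgb1 had the lowest unadjusted p, 0.00565 with limma. Old replicates 1 and 2 were not above background, and with values raised to it the difference was smaller, -0.83 ± 0.33 (SE). It passed the threshold there (adjusted p = 0.044 with limma), but that fit called 13.4% of all probe sets lower and 56.4% higher. With so many calls the adjustment is milder, so this pass adds no support. The distance of old replicate 3 from the young mean was -0.87, the largest fall below the young mean that this array showed among the 9 genes, and the young arrays themselves spanned 0.80. Tested alone against the young arrays, that array did not differ past the threshold (-0.87 ± 0.29, SE, adjusted p = 0.104 with limma).

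Cd44, the hyaluronan receptor, stood at 6.90, 6.99 and 7.16 on the young and at 5.62, 5.57 and 6.81 on the old arrays. The groups did not overlap, with old replicate 3 just below the lowest young array. The old mean was 6.0 ± 0.70 (SD, n = 3), the young mean 7.02 ± 0.13 (SD, n = 3), and the difference -1.02 ± 0.37 (SE, adjusted p = 0.101 with limma). With old replicates 1 and 2 raised to background, the distances of Cd44 were -0.72 and -0.61. In the deposited values the gene was thus lower than the young mean by at least 0.72 and 0.61. Cnr2, the cannabinoid receptor, stood at 5.72, 5.86 and 5.58 on the young and at 4.40, 4.43 and 5.73 on the old arrays. Old replicate 3 lay inside the young range. The difference of -0.87 ± 0.39 (SE, adjusted p = 0.117 with limma) has no measured size, because the background level of old replicates 1 and 2 lies above the young values of Cnr2.

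S1pr1, the egress receptor, had smaller distances than Cxcr4. It stood at 8.14, 8.25 and 7.92 in the young group and, for old replicates 1 to 3, at 7.29, 6.94 and 8.31. As for Cxcr4, old replicates 1 and 2 were the lowest and old replicate 3 the highest of the 6 arrays. The old mean was 7.51 ± 0.72 (SD, n = 3) and the young mean 8.10 ± 0.17 (SD, n = 3). The difference was -0.59 ± 0.38 (SE, adjusted p = 0.212 with limma), and it turned to 0.70 ± 0.27 (SE, adjusted p = 0.213 with limma) after quantile normalization. On old replicates 1 and 2 the signal was 1.76-fold and 2.24-fold lower than the young mean, and on old replicate 3 it was 1.16-fold higher.

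Ccr7, the receptor for Ccl19 and Ccl21, was not lower on both old replicates 1 and 2, unlike Cxcr4, Itga4, Itgb1, Cd44, Cnr2 and S1pr1 in the deposited values. It stood at 7.0, 7.14 and 6.76 on the young arrays and at 7.26, 6.44 and 7.34 on the old arrays. Old replicates 1 and 3 were above all young arrays and old replicate 2 was below them. The value of old replicate 2 is close to the background level of that array (6.44 against 6.41). The means were 7.01 ± 0.50 (SD, n = 3) and 6.97 ± 0.19 (SD, n = 3), a difference of 0.05 ± 0.30 (SE, adjusted p = 0.898 with limma). The sign of this difference was not fixed, at -0.21 with each array centred on its median and 1.11 ± 0.44 (SE) after quantile normalization.

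Itgal, the LFA-1 alpha chain, stood at 5.11, 5.11 and 5.54 on the young and at 5.36, 5.46 and 5.27 on the old arrays. All old values lay inside the young range, but old replicates 1 and 2 were not above background and old replicate 3 was just above it (5.27 against 5.18). The difference was 0.11 ± 0.22 (SE, adjusted p = 0.677 with limma), or -0.15 with arrays centred on their median. Cxcr5, the follicle homing receptor, stood at 3.64, 3.81 and 3.58 on the young and at 4.39, 4.27 and 4.15 on the old arrays. Every value was within background, so no change of Cxcr5 is given, although the groups did not overlap (difference 0.59 ± 0.20, SE, adjusted p = 0.101 with limma). Background itself was higher on each old array than on each young array.

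**Figure D2:**
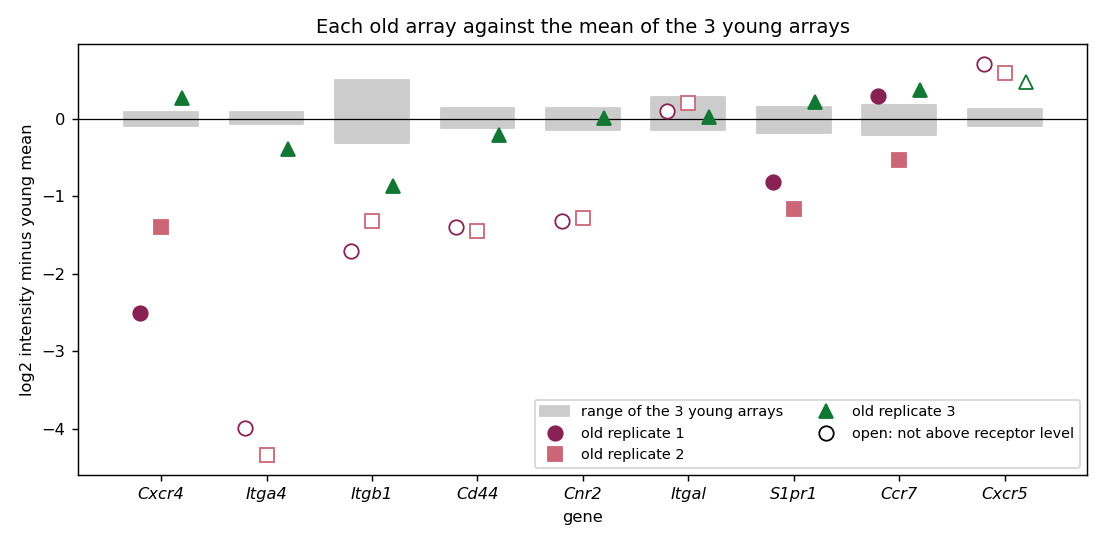
Log2 intensity of each old array minus the mean of the 3 young arrays (y axis) for the 9 receptor genes, with grey boxes for the range of the young arrays and open symbols for values not above background. On old replicates 1 and 2 Itga4 is lowest, at -3.99 and -4.34, while old replicate 3 stays between -0.87 and 0.47 for all 9 genes.

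The 9 genes were next read with old replicates 1 and 2 and old replicate 3 kept apart. Without old replicate 3, 7 of the 9 genes passed an adjusted p under 0.05 with limma, 6 lower (30.2% of all probe sets were called lower) and 1 higher (52.2% were called higher). Cxcr4 (-1.95 ± 0.31, SE) and S1pr1 (-0.99 ± 0.17, SE) were lower and above background on all arrays of this fit. The other lower ones, Itga4, Itgb1, Cd44 and Cnr2, were not above background on either old array, so that their calls come with no measured size. Relative to the young mean, bounds on these arrays were -2.88 and -2.78 for Itga4, -0.86 and -0.75 for Itgb1 and -0.72 and -0.61 for Cd44, and for Cnr2 there is none. The higher one was Cxcr5, within background. Ccr7 (-0.12 ± 0.26, SE, adjusted p = 0.683) and Itgal (0.15 ± 0.17, SE, adjusted p = 0.433) did not pass. Old replicates 1 and 2 both lay below all young values for those 6 genes, as did 32.4% of all probe sets and 63.6% of those above background on every young array. Both lay above all young values for 1 gene, Cxcr5, and for 56.7% of all probe sets.

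Taken by itself against the young group, and with the young spread assumed for it, old replicate 3 called 0 of the 9 genes with limma. Of all probe sets this fit called 5.24% lower and 1.76% higher. Its values lay above the young range for 4 genes, Cxcr4, S1pr1, Ccr7 and Cxcr5, below it for 3, Itga4, Itgb1 and Cd44, and inside it for Cnr2 and Itgal. Of all probe sets 41.7% lay above and 31.8% below the young range on that array. The distances from the young mean were 0.26 for Cxcr4, 0.21 for S1pr1 and 0.37 for Ccr7, and none of these passed the threshold (adjusted p = 0.245, 0.414 and 0.197 with limma).

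Scaling changed the sign for some genes and not for others. Centring each array on its median lowered every difference by 0.25, and Cxcr4 then stood at -1.47, Itga4 at -3.16, Itgb1 at -1.55, Cd44 at -1.27, Cnr2 at -1.12 and S1pr1 at -0.84. Quantile normalization, which gives all arrays the same distribution, left Itga4 (-2.56), Itgb1 (-0.79), Cd44 (-0.61) and Cnr2 (-1.11) lower in the old group. Cxcr4, S1pr1 and Ccr7 turned or moved upwards. On that scale Cxcr4 stood at 9.30, 9.94 and 9.82 for old replicates 1 to 3 and at 9.46, 9.55 and 9.30 on the young arrays. S1pr1 reached 8.74, 8.07 and 7.93 in the old group, against 7.61, 7.71 and 7.32 in the young group, and Ccr7 reached 8.69, 7.32 and 7.15 against 6.68, 6.78 and 6.38. For S1pr1 and Ccr7 every old array was then above every young array, whereas in the deposited values the groups overlapped. The share of all probe sets so placed after quantile normalization is not given here, so this is a description only. None of the 9 genes passed the threshold under either scaling with limma (smallest adjusted p = 0.117 and 0.213).

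**Figure D3:**
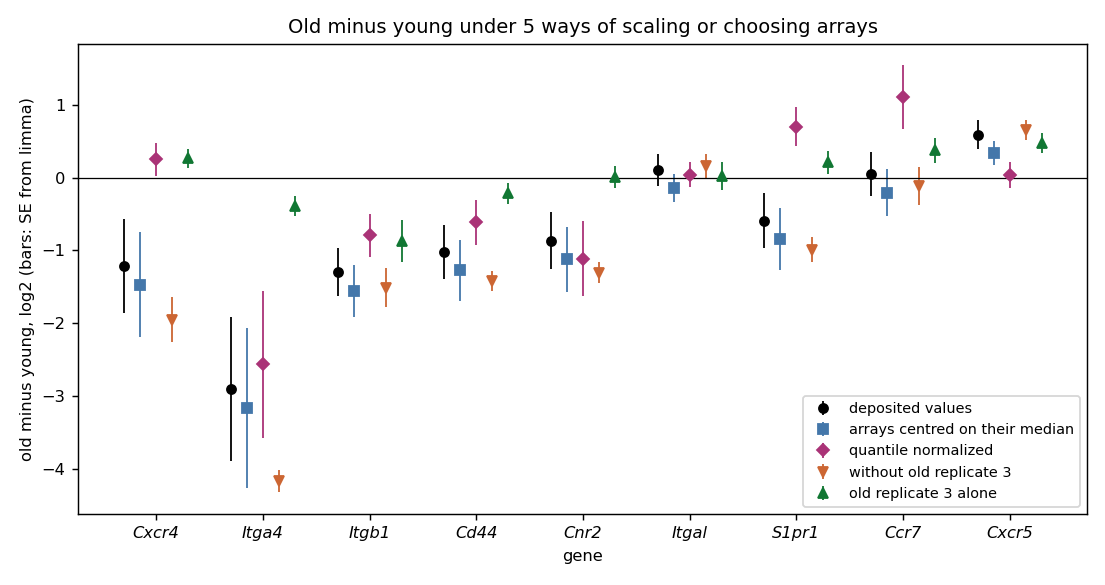
Old minus young difference on the log2 scale (y axis, bars are the SE from limma) of the 9 receptor genes for the deposited values, median-centred arrays, quantile normalized arrays, the arrays without old replicate 3, and old replicate 3 alone. Itga4, Itgb1 and Cd44 are below 0 under all 5, and Cxcr4 and S1pr1 are above 0 with quantile normalization and for old replicate 3 alone.

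Ligands and partners of the receptors were read from 8 further lists of 120 genes, of which 110 had a probe set of their own. With limma 0 of these 110 genes passed the threshold over all genes, 45 had an unadjusted p under 0.05, and the median difference was -0.28 (-0.04 after quantile normalization). In the old group 30 of the 110 lay wholly lower and 21 wholly higher, beside 22.9% and 36.1% of all probe sets. Cxcl12, the Cxcr4 ligand that stroma makes, had a young mean of 4.49 ± 0.22 (SD, n = 3) and was above background on 1 array, young replicate 3. Vcam1, the VLA-4 ligand, was above background on the 3 young arrays only (young mean 5.15 ± 0.30, SD, n = 3). Its old values of 5.56, 5.20 and 4.73 overlapped the young ones. Among the 7 measured chemokine ligands 0 passed the threshold. The smallest unadjusted p was that of Ccl19, by the brightest of its 5 probe sets (6.61, 6.56 and 5.27 on the old arrays, close to background of 6.30, 6.41 and 5.18). Next in that order, Cxcl9 and Cxcl10 were within background on all 6 arrays, and so were Madcam1 and Has2, first among the 5 measured adhesion partners of the niche. Icam4, the third of these, was above background on 1 young array only.

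Partner chains and relatives of the receptors were read next. Itgb2, the beta chain that pairs with Itgal, was at 5.31, 5.19 and 6.65 in the old group, while the young mean was 6.54 ± 0.27 (SD, n = 3), and was within background on old replicates 1 and 2. Itgb7, the other beta chain that pairs with Itga4, was within background on all 6 arrays, and so was Ackr3, a scavenging receptor for Cxcl12. Among 16 other chemoattractant receptors S1pr4, a relative of S1pr1 on blood cells, stood at 6.68, 6.56 and 6.75 on the old arrays, all above the young mean of 6.07 ± 0.08 (SD, n = 3). It was above background on all 6 arrays, and its difference was 0.60 ± 0.20 (SE, adjusted p = 0.101 with limma). Background on old replicates 1 and 2 (6.30 and 6.41) lay above the young mean of S1pr4, which limits what their higher values show. On old replicate 3 alone S1pr4 passed the threshold (0.68, adjusted p = 0.030 with limma), 1 of 2 of the 110 genes to do so. S1pr2, another receptor of this family, stood at 6.33, 6.53 and 5.45 in the old group and had a young mean of 5.17 ± 0.14 (SD, n = 3), all old values being higher (adjusted p = 0.101 with limma). These old values were close to background (6.30, 6.41 and 5.18), which lay above the young mean of S1pr2 on each old array. Its difference thus has no measured size. Ccr6, a chemokine receptor and the third of that list, was within background on all 6 arrays. The other gene past the threshold on old replicate 3 alone was Sgpp1, a phosphatase of sphingosine 1-phosphate, at -0.63 on that array (adjusted p = 0.033 with limma). Sgpp1 measured 5.61, 5.51 and 5.87 in the old group, below the young values of 6.52, 6.44 and 6.52. The lyase Sgpl1, which destroys the same lipid, stood at 5.88, 6.10 and 6.14 against 6.60, 6.69 and 6.80, with no overlap and an adjusted p of 0.101 with limma. Both were within background on old replicates 1 and 2. Faah, which breaks down the endocannabinoid anandamide and comes next by unadjusted p, was within background on all 6 arrays. Of the 12 genes of sphingosine and endocannabinoid metabolism 8 had a higher old mean (6 with centred arrays, 7 after quantile normalization). Of all 23410 probe sets 14498 had a higher old mean. In the list 5 genes lay wholly higher (36.1% of all probe sets) and 2 wholly lower (22.9%). The median difference was 0.27, beside 0.35 over all probe sets.

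Signalling downstream of the receptors was read beside 5 actin and housekeeping genes, which lay farther from the young mean than any of the 8 lists (median difference -2.27). Among 19 genes of G protein and migration signalling 17 had a lower old mean (14 after quantile normalization), 11 of them without overlap (22.9% of all probe sets), 0 passed the threshold, and the median difference was -1.84. The median of this list was -2.68, -2.79 and -0.10 on old replicates 1, 2 and 3 relative to the young mean. Gnai2, the inhibitory G protein subunit that chemokine receptors couple to, stood at 6.69, 6.53 and 9.52 against a young mean of 9.65 ± 0.02 (SD, n = 3). Rhoh, a GTPase of blood cells, Vav1 and Elmo1 had the smallest unadjusted p of the list, Vav1 and Elmo1 being within background on old replicates 1 and 2. Among 16 genes of integrin activation 13 had a lower old mean (11 after quantile normalization) and 6 lay wholly lower (22.9% of all probe sets). Of all 23410 probe sets 8912 had a lower old mean. The median was -0.72 over the 11635 probe sets above background on every young array, as 14 of these 16 genes were. Itgb1bp1, Rap1b and Lims1 came first by unadjusted p, and all were within background on old replicates 1 and 2. Rap1b, a GTPase that activates integrins, stood at 5.46, 5.86 and 9.84 against 9.99 ± 0.10 (SD, n = 3). Fermt3, which activates the integrin beta chain, stood at 6.29, 5.92 and 6.34 against 6.26 ± 0.05 (SD, n = 3), within background on old replicates 1 and 2, and its difference turned from -0.08 to 0.53 after quantile normalization.

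Of 18 other adhesion receptors 11 had a lower old mean (13 with centred arrays, 9 after quantile normalization), 5 of them wholly lower (22.9% of all probe sets) and 2 of the others wholly higher (36.1%). Pecam1, Itgav and Cd47, all lower, came first by unadjusted p. Cd47, an integrin-associated surface protein given by the brighter of its 2 probe sets, stood at 6.31, 6.47 and 10.67 against 10.90 ± 0.04 (SD, n = 3). Icam1, the LFA-1 ligand, had old values of 6.52, 6.08 and 5.54 beside a young mean of 5.58 ± 0.21 (SD, n = 3), with overlap. It was within background on old replicate 2, and background on old replicates 1 and 2 (6.30 and 6.41) lay above its young mean. Among 17 genes of receptor desensitization and regulation, Cd69, which binds S1pr1 and removes it from the surface, stood at 4.01, 3.95 and 6.32 against 6.77 ± 0.35 (SD, n = 3). Old replicates 1 and 2 were within background there. Itch, a ubiquitin ligase that sorts Cxcr4 for degradation, and Foxo1, a transcription factor, followed Cd69 by unadjusted p, and each lay wholly lower. Both were also within background on old replicates 1 and 2. Klf2, a transcription factor known to drive S1pr1, measured 7.40, 7.31 and 7.47 in the old group and 7.23, 7.34 and 6.79 on the young arrays. It was above background on all 6 arrays, and its groups overlapped (difference 0.27 ± 0.23, SE, adjusted p = 0.326 with limma). Rgs1, which shortens chemokine receptor signals, was within background on all 6 arrays.

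**Figure D4:**
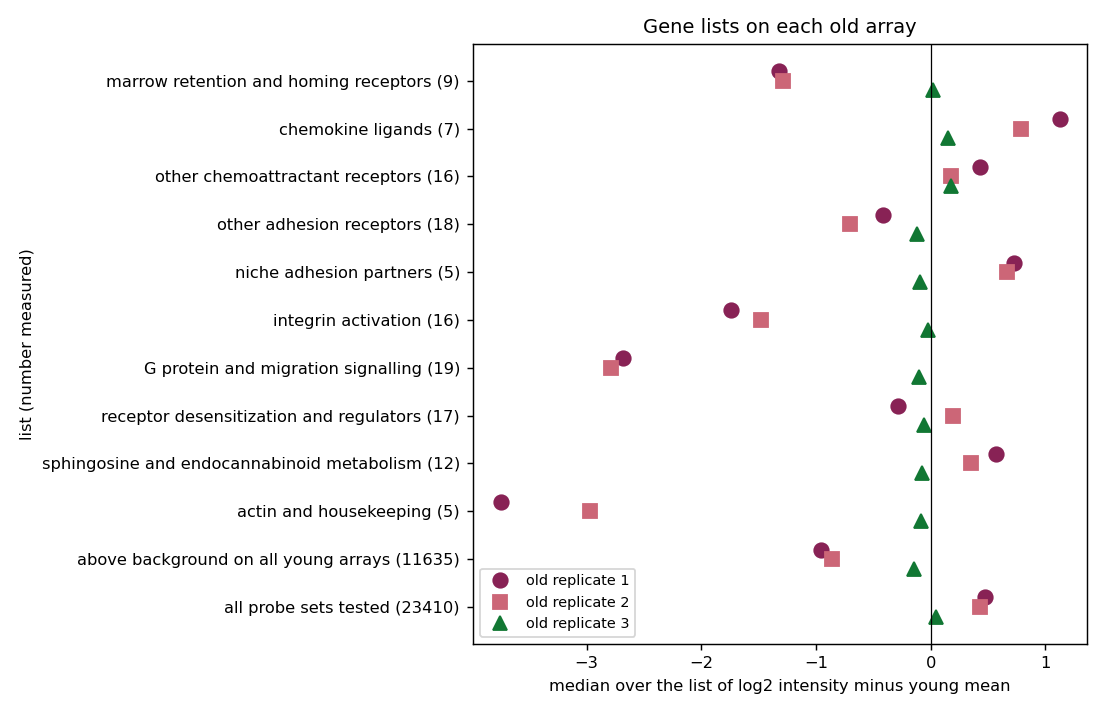
Median over each gene list of log2 intensity minus the young mean (x axis) on old replicates 1, 2 and 3, for the 9 receptors, 8 lists of ligands, partners and signalling genes, 5 actin and housekeeping genes, the probe sets above background on every young array, and all probe sets tested. The receptor list lies at -1.32, -1.29 and 0.02, G protein and migration signalling at -2.68, -2.79 and -0.10, and all probe sets at 0.48, 0.43 and 0.05. Probe sets above background on every young array lie at -0.96, -0.86 and -0.15, and the actin and housekeeping genes at -3.75, -2.97 and -0.09.

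Several of the 9 receptors are also made by other marrow cells, so markers of those cells were read on the same arrays. The 11 neutrophil markers, granule and calprotectin genes among them, were all above background on every young array and on old replicate 3, and 3 were so on each of old replicates 1 and 2. Their summed linear intensity was 8175 to 10758 on the young arrays and 2129 to 8732 on the old arrays, and these cells use Cxcr4, Itga4 and Cd44 too. The 8 mature B markers, a stage that uses Cxcr5 and Ccr7, summed to 1287 to 1805 on the young and 490 to 1759 on the old arrays, with 8 above background on old replicate 3 and 2 on each of the others. Of 8 T cell markers Cd4, Cd8a, Cd8b1 and Cd5 were within background on all 6 arrays, and the list summed to 172 to 239 on the young and 219 to 337 on the old arrays. Of 8 monocyte and macrophage markers Adgre1, Mrc1 and C1qa were within background on all arrays, and the sum was 645 to 1293 on the young and 285 to 534 on the old arrays. The 4 measured erythroid markers summed to 165 to 255 and 184 to 308, and the 8 NK and plasma cell markers to 242 to 319 and 247 to 266, on the young and old arrays. The 14 pro-B and pre-B markers summed to 9465 to 10000 on the young arrays and to 3142 to 8174 on the old arrays. The part of these cell types in the receptor values was not tested.

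The genes whose profile over the 6 arrays was most like each receptor were found as the smallest root mean square difference of log2 values centred on their own mean, among 17514 named genes. Rpl38 and Hk1 were nearest to Cxcr4 (0.053 and 0.093), and Nr2c2 and Mier1 to Itga4 (0.045 and 0.076). Kif24 and Septin9 were nearest to Itgb1 (0.095 and 0.10), Xpo5 and Smarcal1 to Cd44 (0.052 and 0.052) and Ttpal and Mtif3 to Cnr2 (0.055 and 0.070). Prr14 and Pdcd2 were nearest to S1pr1 (0.056 and 0.090), H2bu2 and Snx20 to Ccr7 (0.073 and 0.13), and Kcnab2 and Tmco6 to Itgal (0.024 and 0.041). Upp2 and Wrnip1 were nearest to Cxcr5 (0.055 and 0.061), which was not detected. Each profile rests on 6 arrays, and the array effects described above are shared by all of them.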

How the data were processed

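The authors deposited 1 value table of probe set intensity on a linear scale, from 3.58 to 8502. Per the submitters' processing notes RMA was used, its settings being not given in the sources used here. RMA reports log2 values, and these are linear, so log2 of the deposited intensity was taken first. Platform annotation paired 21789 of 28940 probe sets with 1 gene, 1621 with several and 5530 with none.

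All 23410 probe sets with a gene were fitted with limma 3.58.1 in R 4.3.3, age group as the only factor, with 2-sided moderated tests and Benjamini-Hochberg adjustment over all of them (threshold 0.05). Genes in the lists are given by their brightest single-gene probe set. The code was tested on simulated data. Tables came from pandas 2.3.3 in Python 3.11.15 (numpy 2.4.6), figures from matplotlib 3.10.9.

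The members and lists were chosen with earlier results of these data known. Named genes were every member, the first 3 of each pathway list by unadjusted p, fixed partners and the 2 nearest profiles per member. Gnai2, Fermt3, Rag1, Ebf1, Vpreb1, Vpreb2 and Actb fall outside this rule and were named after their values were seen. The number of arrays limits the precision. Titles share replicate numbers. Deviations of same-numbered arrays correlated at 0.157, 0.150 and 0.279, all over 0.1, so the numbers were taken as a possible pairing, but old replicate 1 correlated at 0.153 with young replicate 2 too. Alternatives were the replicate block, filters, scalings, moderation, array weights and leaving out arrays.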

Additional observations from a re-analysis of the deposited data

How the results depend on the processing

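Over all 23410 probe sets, the 9 receptors and the 110 pathway genes, limma called 0 with the replicate block, without dim probe sets, with all probe sets tested, with arrays centred or quantile normalized, with trended robust moderation and at adjusted p under 0.1. With the replicate block the smallest adjusted p was 0.081 for each, and the block changed no call. With array weights, whose estimation stopped before convergence, the counts were 19998, 8 and 93. The weights were 0.288, 2.6 and 0.0447 for old replicates 1 to 3 and 1.87 to 4.26 for the young arrays. That fit thus gave old replicate 3 the least weight. Leaving out 1 array gave 0 to 19285 probe sets, 0 to 7 receptors and 0 to 88 pathway genes, and only leaving out old replicate 3 moved them from 0. Old replicate 3 alone gave 1638 probe sets, 0 receptors and 2 pathway genes.

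The difference kept its sign for Itga4, Itgb1, Cd44 and Cxcr5 under all alternatives run (Cxcr5 could not be tested without dim probe sets). It turned for Cxcr4 with quantile normalization (0.25) and old replicate 3 alone (0.26), for S1pr1 likewise (0.70 and 0.21), for Itgal with median centring (-0.15), and for Cnr2 with old replicate 3 alone (0.0091) and values raised to background (0.43), where the floor of old replicates 1 and 2 exceeds the young values. Ccr7, at -0.12 to 0.33 when 1 array was left out, turned with median centring (-0.21), array weights (-0.48), without old replicate 1 (-0.08), without old replicate 3 (-0.12) and without young replicate 3 (-0.06). With values raised to background Itga4 (-2.01), Itgb1 (-0.83) and Cxcr5 (1.21) passed the threshold, in a fit that called 13.4% of all probe sets lower and 56.4% higher. Cxcr5 passed through the floors alone. For Itga4 and Itgb1 old replicates 1 and 2 were set to the floors, so their passing adds no support. For other turns the cause was not tested. Since each receptor has 1 probe set, averaging probe sets changed nothing. Signal over background limits Itga4, Itgb1, Cd44, Cnr2 and Itgal on old replicates 1 and 2, and Cxcr5 everywhere.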
